A study of Mus musculus with 21 samples.

Results

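The genes of the cytosolic ribosome were followed in liver tumours and livers of mice with and without the tumour suppressor gene Trp53. Members were the genes whose array name is that of a ribosomal protein of the large subunit (Rpl), the small subunit (Rps, with Rpsa) or the stalk (Rplp0 to Rplp2). This gave 81 of 30222 genes named on the arrays, 47 of the large subunit, 31 of the small subunit and 3 of the stalk, carried by 185 probes. Rpl22p on chromosome 2, listed beside Rpl22 on chromosome 4, was taken in by its name and counted with the large subunit. One probe stood for a gene, the one with the highest mean signal. Of the 81 members, 78 were well above background on all 21 arrays, and 80 were among the 23537 genes tested. Rpl10l was left out by the filter on dim probes.

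The study hybridised total RNA of single samples from mice of C57BL/6J background to one-colour arrays. Knockout (KO) tumours came from untreated mice labelled as Trp53 knockout and carry a combined label of hepatocellular and cholangiocellular carcinoma (6 tumours of 5 mice). DEN tumours carry the label of hepatocellular carcinoma and arose in wild-type Trp53 mice given the liver carcinogen N-nitrosodiethylamine (DEN) into the peritoneum at day 15, at 10 µg per g body weight (7 tumours of 5 mice). KO livers came from 4 untreated Trp53 knockout mice and wild-type (WT) livers from 4 untreated mice with intact Trp53. The sources used here do not give ages, sexes, the exons removed or the cells that lost them. Tumours of 1 mouse were averaged, so the fit held 18 mice. All of them are whole tissue, in which fewer cells of a type and less RNA per cell cannot be told apart.

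A level is the log2 processed intensity of a probe minus the 75th percentile of its array, and a log2 change is a difference of mean levels from the limma fit, given with its standard error (SE). Called means a Benjamini-Hochberg adjusted p under 0.05 over all genes tested. Trp53 itself averaged -4.71 ± 0.47 in KO tumours and -2.65 ± 0.11 in DEN tumours (SD, n = 5 mice each), and -5.57 ± 0.75 in KO livers against -3.57 ± 0.26 in WT livers (SD, n = 4 each), so the labels and the gene went together. The array 75th percentile was 951 to 4258 intensity units in KO tumours and 512 to 884 in DEN tumours, while KO livers had 499.6 to 685 and WT livers 476 to 729. The arrays fill 6 slides read on 4 scan days, and no slide holds more than 1 group. WT livers were alone on their scan day.

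Each ribosome holds 1 copy of nearly every one of these proteins, and their transcripts belong to the most abundant of a growing cell. Many start with a run of pyrimidines at the cap (the 5′ terminal oligopyrimidine tract), through which mTOR signalling and the binding protein Larp1 control their translation. Free Rpl5 and Rpl11 bind Mdm2, the ubiquitin ligase of p53, and hold it off p53. Rps27l, a paralog of Rps27, is known in human cells as a gene that p53 induces.

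As a set the members held a larger mean share of the signal in tumours than in livers. Their level over the 75th percentile was lower in KO tumours than in KO livers and, in DEN tumours, slightly above that of WT livers. Their share of the summed intensity, taken over 1 probe per gene, was 5.56 ± 0.42% in KO tumours, 4.60 ± 0.41% in DEN tumours, 3.85 ± 0.19% in KO livers and 4.00 ± 0.14% in WT livers (SD, n = 5, 5, 4 and 4 mice). All 5 KO tumour mice (4.89 to 5.97%) lay above all KO livers (3.59 to 4.05%). DEN tumour mice (4.03 to 5.06%) overlapped WT livers (3.83 to 4.16%). The share also split by scan day. DEN tumour arrays had 4.95 to 5.19% on scan day 1 and 4.03 to 4.47% on scan day 2. KO tumour arrays had 5.75 to 5.97% on scan day 1 and 4.70 to 5.41% on scan day 4. The median percentile rank of the members among all genes of an array had the same order of groups, with 98.7 to 99.1 in KO tumour mice, 98.2 to 98.5 in DEN tumour mice, 97.7 to 98.1 for KO livers and 98.0 to 98.3 for WT livers. The median member level was 6.09 ± 0.23 in KO tumours, 6.36 ± 0.21 in DEN tumours, 6.37 ± 0.06 in KO livers and 6.27 ± 0.22 in WT livers. These are descriptions with no test.

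**Figure D1:**
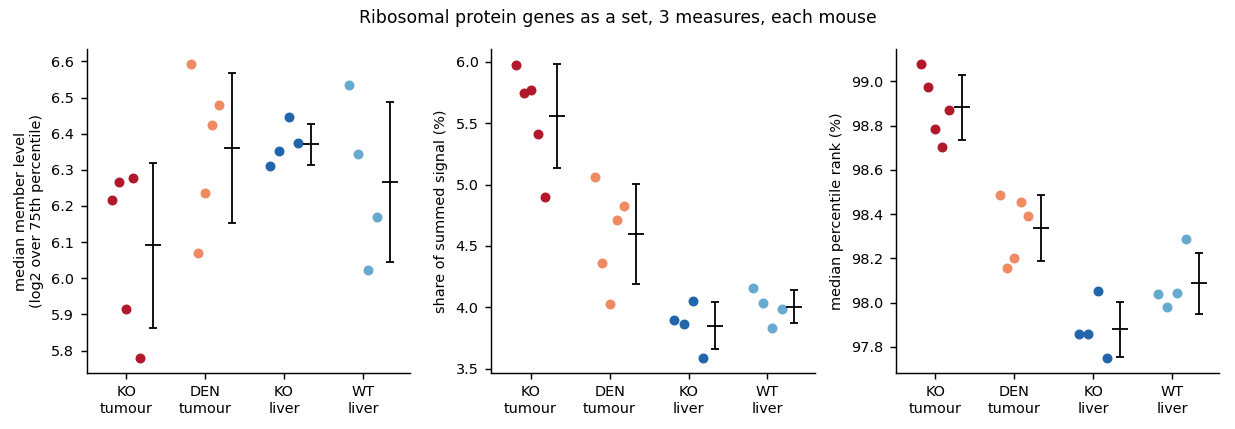
The 78 ribosomal protein genes above background on all arrays (share: all 81) as a set in each of 18 mice, by group, with the group mean and SD in black; the left axis is the median log2 intensity over the array's 75th percentile, the middle axis the share of summed intensity in percent, the right axis the median percentile rank. KO tumours are lowest in the left panel (mean 6.09) and highest in the other panels (5.56% of the signal), so the direction of the set in KO tumours depends on the scale.

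The direction of the whole set in KO tumours, against KO livers and against DEN tumours, therefore rests on the scaling. Scaled on the 75th percentile, the members' median log2 change in KO tumours against KO livers was -0.24, beside -0.22 over all genes tested. Of 80 members, 3 were called higher (21.6% of all genes were) and 20 lower (29.6% of all genes). After normexp background correction and quantile normalization the median was 0.78, beside -0.02 over all genes, with 71 members called higher (24.9% of all genes) and 1 lower (24.8%). In KO tumours against DEN tumours, 1 member was called higher (19.9% of all genes) and 22 lower (37.5%) at a median of -0.29, beside -0.33 over all genes, against 58 higher (24.9% of all genes) and 1 lower (28.7%) at a median of 0.44 with quantile normalization. The upper end of the arrays differed between groups: the 99th percentile of all genes lay 5.84 to 6.54 above the 75th in KO tumours and 6.69 to 7.24 in DEN tumours, while it lay 7.14 to 7.34 above it in KO livers, with 6.73 to 7.25 in WT livers, on the log2 scale. Its part in the direction of the set was not tested.

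DEN tumours against WT livers had a positive median under both scalings, closer to 0. With the 75th percentile, 2 members were called higher (10.6% of all genes) and 1 lower (11.0%) at a median of 0.08, beside 0.04 over all genes. Quantile normalization gave 17 members higher (11.3% of all genes), 2 lower (12.5%) and a median of 0.19. DEN tumour arrays split by scan day: the median member level was 6.59 to 6.85 on the 3 arrays of scan day 1 and 6.07 to 6.24 on the 4 of scan day 2. Within scan day 1, where KO tumours and DEN tumours have 3 arrays each, 42 members were called lower in KO tumours (30.2% of all genes) at a median of -0.53 with the 75th percentile.

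**Figure D2:**
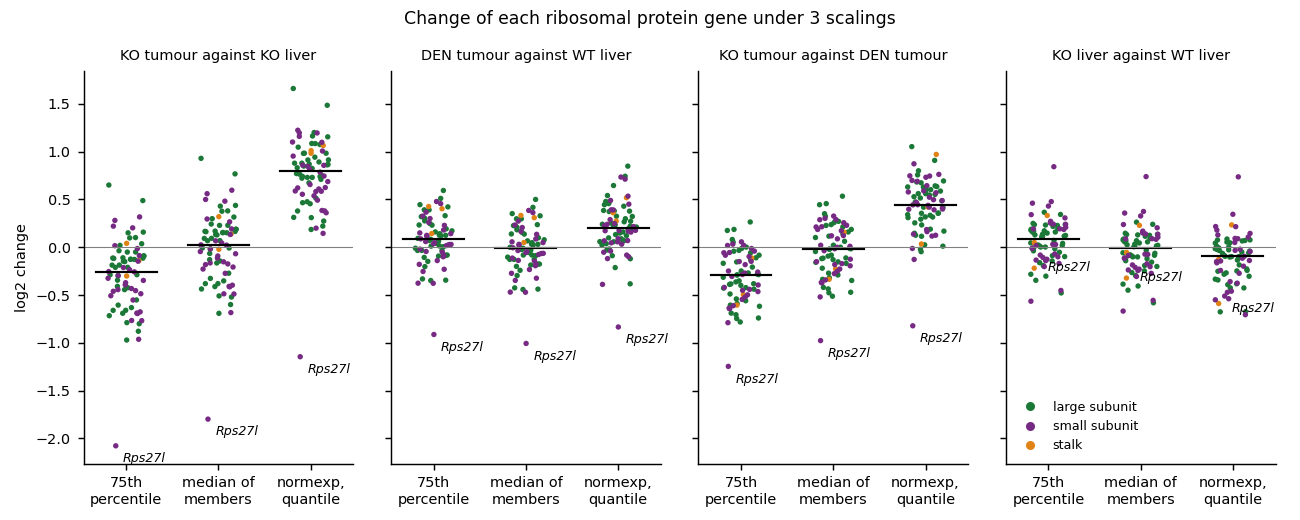
Log2 change of each of 78 ribosomal protein genes (Rpl39l and Rpl3l, close to background, are left out) in 4 comparisons, under scaling on the array's 75th percentile, scaling on the median of the members, and normexp with quantile normalization; points are genes coloured by subunit and black lines are medians. The cloud shifts with the scaling, with a median of -0.24 under the 75th percentile and 0.78 under quantile normalization over all 80 members tested in KO tumours against KO livers, and Rps27l lies under it in the 3 comparisons with tumours.

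Rps27l departed from the set in tumours under every scaling used. It was represented by 1 probe, whose placement in the array files spans a junction (mm9 chr9:66795486-66797176). The probe is shown because this single oligo carries the result, and its longest run shared with a probe of another member is 9 bases.
Rps27l probe: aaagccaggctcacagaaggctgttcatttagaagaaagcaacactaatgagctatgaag
Its level was 4.17, 4.40, 4.16, 4.23 and 3.75 in the 5 KO tumour mice, against 6.19, 6.19, 6.22 and 6.27 in the KO livers. The groups did not overlap, and every KO tumour lay more than 1 log2 unit below every KO liver. The log2 change was -2.08 ± 0.22 (adjusted p = 1.1e-06), and the next lowest member was at -0.97. It was -1.15 with quantile normalization (adjusted p = 2.2e-06), where the median of the members was 0.78, and -1.80 ± 0.15 relative to the median of the members (adjusted p = 2.0e-07).

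In DEN tumour mice, which have wild-type Trp53, Rps27l was at 5.68, 4.87, 5.13, 5.63 and 5.62, against 6.87, 6.34, 6.00 and 5.99 in the WT livers. DEN tumours lay below WT livers without overlap, and above all KO tumours. The log2 change against WT livers was -0.91 ± 0.22 (adjusted p = 0.0066). A fit that took slide as a random block gave -0.80 and ended the call (adjusted p = 0.25). Against DEN tumours, KO tumours were lower by a log2 change of -1.25 ± 0.21 (adjusted p = 1.1e-04), and were also called lower within scan day 1 (-1.72). The tumour effect was larger in the knockout by -1.16 ± 0.31 (adjusted p = 0.0097), a difference that was -0.31 with quantile normalization (adjusted p = 0.21) and -1.29 with slide as a block (adjusted p = 0.14).

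In livers without tumour, the absence of Trp53 was not accompanied by a called change of Rps27l: the log2 change in KO livers against WT livers was -0.08 ± 0.23 (adjusted p = 0.88). With quantile normalization it was -0.51 (adjusted p = 0.031). The comparison sets 4 arrays of scan day 1 against 4 of scan day 3, so scan day and genotype cannot be told apart there.

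Rps27, the paralog of Rps27l that most cells use, was also lower in KO tumours against KO livers with the 75th percentile and relative to the members. Unlike Rps27l, it was not lower with quantile normalization. It was at 6.32, 6.76, 6.28, 6.59 and 5.98 in KO tumour mice and at 7.28, 7.35, 7.46 and 7.30 in KO livers, with no overlap. The log2 change was -0.96 ± 0.20 with the 75th percentile (adjusted p = 8.5e-04) and -0.68 ± 0.15 relative to the median of the members (adjusted p = 0.0014). It was 0.15 with quantile normalization (adjusted p = 0.33), where the median of the members was 0.78. With the 75th percentile it was -0.25 ± 0.20 in DEN tumours against WT livers (adjusted p = 0.42), and -0.25 ± 0.19 in KO tumours against DEN tumours (adjusted p = 0.28). The array files place its probe on chromosome 9, not on the gene's own chromosome 3. The probes of 8 members lie off the gene's chromosome there, among them those of Rpl28, Rpl36, Rps4x, Rps29, Rpl3 and Rpl38. Ribosomal protein genes have many processed copies in the genome, and signal of such copies cannot be told apart from that of the gene.

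**Figure D3:**
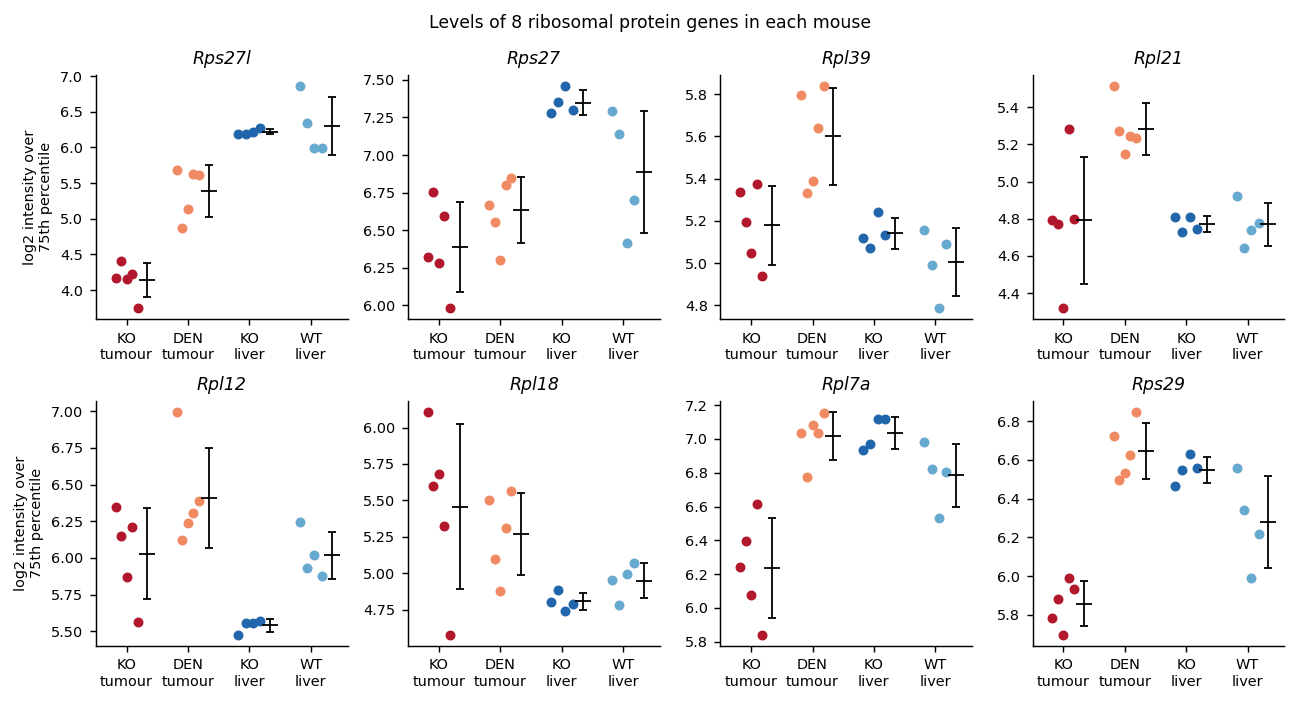
Log2 intensity over the array's 75th percentile for 8 ribosomal protein genes; each point is a mouse and black bars are the group mean and SD (n = 5 KO tumour, 5 DEN tumour, 4 KO liver and 4 WT liver mice). Rps27l is lowest in KO tumours (means 4.14 in KO tumours, 5.39 in DEN tumours, 6.22 in KO livers, 6.30 in WT livers), while Rpl12 and Rpl18 do not share this pattern; the vertical axes differ between panels.

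Of 10 members known for ties to p53 (Rpl5, Rpl11, Rpl23, Rpl26, Rps7, Rps27l, Rps3, Rps14, Rps20 and Rps27a), all 10 had a negative log2 change in KO tumours against KO livers with the 75th percentile, as had 64 of all 80 members. Of the 10, 3 were called lower, a share near the 29.6% of all genes, and their median was -0.37, beside -0.22 over all genes. With quantile normalization 9 were called higher (24.9% of all genes) and Rps27l lower (24.8%). Rpl5, which binds Mdm2 together with Rpl11, was at 4.44, 5.31, 4.29, 6.04 and 5.76 in KO tumour mice and at 5.32 ± 0.09 in KO livers (SD, n = 4). KO tumours lay on both sides of the livers, and the change was -0.15 ± 0.31 (adjusted p = 0.70). The values split by scan day. KO tumour mice 1 to 3 (4.29 to 5.31) were read on scan day 1, as were all KO livers. Mice 4 and 5 (6.04 and 5.76) were read on scan day 4, so scan day and tumour cannot be told apart there. Rpl11 averaged 6.80 ± 0.39 in KO tumours, 7.49 ± 0.32 in DEN tumours (SD, n = 5 each), 7.46 ± 0.08 in KO livers and 7.48 ± 0.07 in WT livers (SD, n = 4 each). It was lower in KO tumours against KO livers (-0.66 ± 0.20, adjusted p = 0.012) and against DEN tumours (-0.69 ± 0.19, adjusted p = 0.0060) with the 75th percentile, and higher against KO livers with quantile normalization (0.38, adjusted p = 0.044).

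Rpl26, which in human cells binds the p53 messenger RNA and raises its translation, was at 5.46, 5.03, 4.92, 5.57 and 4.94 in KO tumour mice and at 5.91, 5.76, 6.01, 6.01 and 5.97 in DEN tumour mice. KO tumours lay below without overlap (-0.75 ± 0.15, adjusted p = 7.2e-04). Its other probes gave -0.01 and -0.51 in the same comparison, and quantile normalization gave -0.05 (adjusted p = 0.70). Rps7, another Mdm2 partner, was lower in KO tumours against DEN tumours (-0.64 ± 0.18, adjusted p = 0.0062), which quantile normalization gave as -0.13 (adjusted p = 0.55). Rpl23 (-0.36 ± 0.18, adjusted p = 0.096) was not called there with the 75th percentile. Rps27a, made as a fusion with ubiquitin, gave -0.26 ± 0.22 with the 75th percentile (adjusted p = 0.32) and was called higher with quantile normalization (0.49, adjusted p = 5.0e-04).

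The stalk proteins recruit elongation factors to the large subunit. None of the 3 was called between KO tumours and KO livers with the 75th percentile, at -0.14 ± 0.20 for Rplp0, 0.04 ± 0.20 for Rplp1 and -0.30 ± 0.23 for Rplp2, and quantile normalization called all 3 higher (0.98 to 1.07). In KO tumours against DEN tumours, Rplp0 (-0.50 ± 0.19, adjusted p = 0.037) and Rplp1 (-0.60 ± 0.19, adjusted p = 0.013) were lower with the 75th percentile. Quantile normalization gave 0.42 and 0.03 for these genes. In DEN tumours against WT livers the stalk genes had log2 changes of 0.14 to 0.43 with the 75th percentile, none called, and quantile normalization called Rplp0 higher (0.52, adjusted p = 0.0067).

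Relative to the median of the members, a scaling that asks only which genes depart from the set, 9 members were called higher (25.8% of all genes) and 11 lower (20.5%) in KO tumours against KO livers. Rpl12 of the stalk base was at 6.34, 6.15, 5.87, 6.21 and 5.57 in KO tumour mice, against 5.48, 5.56, 5.56 and 5.57 in KO livers. The lowest KO tumour lay just within the range of the KO livers, and the other 4 above it. Its change was 0.77 ± 0.15 relative to the members (adjusted p = 4.9e-04), 0.49 ± 0.20 with the 75th percentile (adjusted p = 0.047) and 1.49 with quantile normalization (adjusted p = 6.7e-07). KO tumours averaged 6.03 ± 0.31 (SD, n = 5), close to WT livers at 6.02 ± 0.16 (SD, n = 4), and relative to the members Rpl12 was lower in KO livers against WT livers (-0.58 ± 0.16, adjusted p = 0.042). Rpl18, a large subunit protein, was at 6.11, 5.60, 5.68, 5.32 and 4.58 in KO tumour mice, against 4.81, 4.89, 4.74 and 4.79 in KO livers. In 4 of the KO tumour mice it lay above all KO livers, and in mouse 5 below them. Its change was 0.93 ± 0.22 relative to the members (adjusted p = 0.0023), 0.65 ± 0.24 with the 75th percentile (adjusted p = 0.032) and 1.66 with quantile normalization (adjusted p = 9.8e-06). Taking slide as a random block ended both calls (adjusted p = 0.26 for Rpl12 and 0.24 for Rpl18), and of 32 settings 15 held the call of Rpl12 and 23 that of Rpl18.

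Rps19, the small subunit protein most often mutated in Diamond-Blackfan anaemia, was 0.60 ± 0.17 higher relative to the members (adjusted p = 0.0073) in KO tumours against KO livers, and 0.32 ± 0.22 with the 75th percentile (adjusted p = 0.24). Its mean level was 2.48 in KO tumours, 2.62 in DEN tumours, 2.16 in KO livers and 2.72 in WT livers, and relative to the members it was lower in KO livers against WT livers (-0.67 ± 0.18, adjusted p = 0.036). Rpl10, which joins the large subunit late in its assembly, was among the lowest, at 7.27 ± 0.38 in KO tumours (SD, n = 5) and 8.24 ± 0.10 in KO livers (SD, n = 4). Its change was -0.69 ± 0.17 relative to the members (adjusted p = 0.0032), -0.97 ± 0.25 with the 75th percentile (adjusted p = 0.0037) and 0.19 with quantile normalization (adjusted p = 0.36). Rpl14, a large subunit protein, gave -0.60 ± 0.15 (adjusted p = 0.0029), -0.88 ± 0.20 (adjusted p = 0.0016) and 0.22 (adjusted p = 0.20) on the same scales. Rpsa, also known as the laminin receptor, gave -0.49 ± 0.15 (adjusted p = 0.014), -0.77 ± 0.21 (adjusted p = 0.0052) and 0.36 (adjusted p = 0.014). For Rpl10, Rpl14 and Rpsa the sign thus turned with quantile normalization, under which the median of all members was 0.78.

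**Figure D4:**
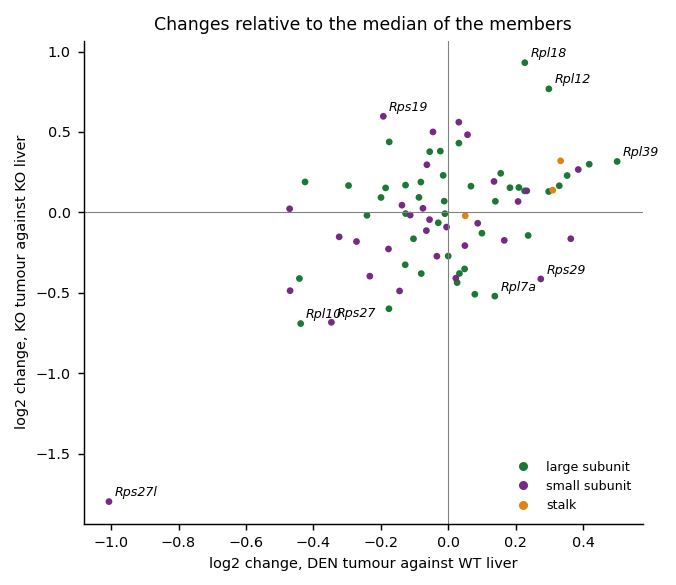
Log2 changes relative to the median of the members for 78 ribosomal protein genes, DEN tumours against WT livers on the horizontal axis and KO tumours against KO livers on the vertical axis, coloured by subunit. Rps27l stands apart at the lower left (-1.01 and -1.80), and Rpl18 (0.93) and Rpl12 (0.77) lie at the top.

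In KO tumours against DEN tumours, scaling on the members left 3 called higher (25.0% of all genes) and 9 lower (27.1%). Rps29, a zinc-binding protein of the small subunit, was at 5.78, 5.88, 5.70, 5.99 and 5.93 in KO tumour mice, against 6.72, 6.50, 6.53, 6.63 and 6.85 in DEN tumour mice. All KO tumours lay below all DEN tumours (-0.79 ± 0.14, adjusted p = 1.8e-04 with the 75th percentile, and -0.52 ± 0.14, adjusted p = 0.0049 relative to the members). Its other probes, also placed off its own chromosome, gave -0.65 and -0.77, and quantile normalization gave -0.01 (adjusted p = 0.93). Rpl7a, a large subunit protein, was at 6.24, 6.40, 6.08, 6.62 and 5.84 in KO tumour mice, against 7.03, 6.78, 7.08, 7.04 and 7.15 in DEN tumour mice. The groups did not overlap (-0.78 ± 0.16, adjusted p = 5.8e-04), its 3 other probes gave -0.37 to -0.62, and quantile normalization gave 0.03 (adjusted p = 0.77). Rps6, the substrate of the S6 kinases, was lower with the 75th percentile (-0.64 ± 0.16, adjusted p = 0.0036) and relative to the members (-0.37 ± 0.13, adjusted p = 0.031), and was at 0.14 with quantile normalization (adjusted p = 0.30).

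The difference of the tumour effects, KO tumours over KO livers minus DEN tumours over WT livers, had 8 members called lower (18.3% of all genes) and 0 called higher (12.7%) with the 75th percentile, at a median of -0.41 beside -0.25 over all genes. The count at an unadjusted p under 0.05 was 20. After Rps27l the lowest were Rps29 (-1.06 ± 0.21, adjusted p = 0.0015), Rpl7a (-1.03 ± 0.24, adjusted p = 0.0042) and Rpl36 of the large subunit (-0.96 ± 0.25, adjusted p = 0.0097). With quantile normalization 46 members were called higher (15.5% of all genes) and 0 lower (14.9%). With limma and slide as a random block 0 were called in either direction, and 5 had an unadjusted p under 0.05.

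In DEN tumours against WT livers, Rpl39, a small protein of the exit tunnel, was at 5.80, 5.33, 5.39, 5.64 and 5.84 in DEN tumour mice, against 5.16, 4.99, 4.79 and 5.09 in WT livers. DEN tumours lay above without overlap (0.59 ± 0.16, adjusted p = 0.013), also relative to the members (0.50 ± 0.13, adjusted p = 0.011) and with quantile normalization (0.85, adjusted p = 4.2e-05). Its other probes gave 0.04 and 0.41, and slide as a random block ended the call (adjusted p = 0.16). Rpl21, a large subunit protein, averaged 5.28 ± 0.14 in DEN tumours (SD, n = 5) and 4.77 ± 0.11 in WT livers (SD, n = 4), again without overlap (0.51 ± 0.17, adjusted p = 0.041), but leaving out single mice ended that call in 12 of 18 cases, and it was not called relative to the members (0.42 ± 0.17, adjusted p = 0.10). Rpl13a, a large subunit protein that in human cells also silences translation after interferon, gave 0.32 ± 0.18 with the 75th percentile (adjusted p = 0.23) and was called higher with quantile normalization (0.54, adjusted p = 3.3e-04).

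KO livers and WT livers differed in no member with the 75th percentile: 0 of 80 were called higher (1.85% of all genes) and 0 lower (6.68%), with limma and Benjamini-Hochberg adjustment, and 6 had an unadjusted p under 0.05. The median was 0.09, beside -0.05 over all genes. Quantile normalization called 7 members lower (5.02% of all genes) and none higher.

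The tissue-restricted paralogs among the members were near background. Rpl39l, the testis form of Rpl39, was well above background on 4 of 6 KO tumour arrays, 1 of 7 DEN tumour arrays, and on no KO liver or WT liver array. Its level was -3.62, -5.20, -5.94, -7.04 and -5.86 in KO tumour mice, against -7.06, -6.64, -7.96, -6.52 and -7.39 in DEN tumour mice. The groups overlapped. Rpl39l passed the filter on dim probes through its KO tumour arrays and is among the members counted as called higher in KO tumours. No size of change is given, since the bound that background sets for KO livers lies above the KO tumour mean. Rpl3l, the striated muscle form of Rpl3, was well above background on 4 of 6 KO tumour, 3 of 7 DEN tumour, 0 of 4 KO liver and 1 of 4 WT liver arrays and was not called in any comparison. Rpl10l, the germ cell form of Rpl10, was well above background on 2 of 7 DEN tumour arrays only and was not tested. Rpl3 (-0.09 ± 0.19, adjusted p = 0.71) and Rps4x (-0.37 ± 0.20, adjusted p = 0.14) were not called in KO tumours against KO livers with the 75th percentile, and quantile normalization called both higher (0.91, adjusted p = 5.1e-05, and 0.66, adjusted p = 3.1e-04). Their probes lie off the gene's chromosome. A probe of Rpl3 on its own chromosome gave 0.57 in that comparison with the 75th percentile (adjusted p = 0.014).

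Promoters of the members were searched for short sequences, and those printed belong to genes that departed from the set or to their paralogs. The part of promoters in the changes was not tested. Each line holds 35 bases before and 25 from the annotated start (RefSeq, GRCm38.p6, the first start listed where there are several), with capitals for a C followed by 4 pyrimidines near the start and for CCGGAAG or CTCGCGAGA on either strand.
Rps27l (GRCm38.p6 chr9:66946051-66946110, plus strand): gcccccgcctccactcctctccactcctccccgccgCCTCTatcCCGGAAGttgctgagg
Rps27 (GRCm38.p6 chr3:90213624-90213683, minus strand): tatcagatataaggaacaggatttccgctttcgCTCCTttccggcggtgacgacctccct
Rpl39l (GRCm38.p6 chr16:10170193-10170252, plus strand): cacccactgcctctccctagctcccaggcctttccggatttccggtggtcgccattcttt
Rpl39 (GRCm38.p6 chrX:37085198-37085257, minus strand): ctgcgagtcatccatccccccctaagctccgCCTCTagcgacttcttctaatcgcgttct
Rpl7a (GRCm38.p6 chr2:26910772-26910831, plus strand): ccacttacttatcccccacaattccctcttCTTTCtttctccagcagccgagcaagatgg
Rpl26 (GRCm38.p6 chr11:68901531-68901590, plus strand): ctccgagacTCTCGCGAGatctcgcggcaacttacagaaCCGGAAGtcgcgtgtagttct
By symbol, 59 members had 71 promoters in the table. A C followed by 4 pyrimidines, searched on the gene's strand from 5 bases before to 10 bases after the start, was in 29 of the 71 (40.8%) and in 18.3% of all 32851 promoters. CCGGAAG, searched on both strands of the 250 bases before and 50 after the start, was in 36.6% of member promoters and 8.86% of all, and CTCGCGAGA in 11.3% and 0.676%. Rps27l held the tract and CCGGAAG in the window shown. Rpl39l held none of these within the bases searched, although a C followed by 4 pyrimidines began just before the bases searched for the tract. These are matches of letters, not measured sites.

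Of the other genes of the pathway, mitochondrial ribosomal proteins, which build a separate ribosome for the genes of the mitochondrion, stood lower in KO tumours on both scalings. Of 76 measured, 62 were called lower (29.6% of all genes were) and 0 higher (21.6%) against KO livers with the 75th percentile, at a median of -0.86 beside -0.22 over all genes. With quantile normalization 40 were lower (24.8% of all genes) and 3 higher (24.9%), at a median of -0.40 beside -0.02. Mrpl4 gave -2.11 ± 0.16 (adjusted p = 5.6e-08) and Mrpl15 -1.88 ± 0.16 (adjusted p = 2.1e-07). In DEN tumours against WT livers 14 were lower (11.0% of all genes) and 0 higher (10.6%), at a median of -0.37 beside 0.04 over all genes.

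Of 47 ribosome assembly factors measured, 11 were higher and 5 lower in KO tumours against KO livers, beside 21.6% and 29.6% of all genes, so that the share higher was near that of all genes. Among them were Gar1 of the pseudouridylation complex at 1.09 ± 0.16 (adjusted p = 2.5e-05) and Nmd3, the export adaptor of the large subunit, at -1.29 ± 0.20 (adjusted p = 4.6e-05). In DEN tumours against WT livers 2 were higher and 3 lower (10.6% and 11.0% of all genes), among them Pes1 (1.07 ± 0.25, adjusted p = 0.0057). Of 37 translation factors, 2 were higher and 18 lower in KO tumours against KO livers (21.6% and 29.6% of all genes), and 20 higher and 4 lower with quantile normalization (24.9% and 24.8% of all genes). Eif6, which keeps the subunits apart until the large one is mature, was higher in KO tumours (0.80 ± 0.28, adjusted p = 0.027) and in DEN tumours (0.90 ± 0.28, adjusted p = 0.032) each against its own livers, while Eif4a2, a helicase of initiation, was lower in both (-1.95 ± 0.23, adjusted p = 4.1e-06, and -1.18 ± 0.23, adjusted p = 0.0018).

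Of 11 genes of RNA polymerase I and its factors, 3 were higher and 1 lower in KO tumours against KO livers (21.6% and 29.6% of all genes), with the probe named for the initiation factor Ubtf at -1.87 ± 0.36 (adjusted p = 3.8e-04). With quantile normalization 4 were higher and 0 lower (24.9% and 24.8% of all genes), so Ubtf was not called lower there. The Ubtf probe averaged 6.93 in KO tumours and 8.80 in KO livers, where Rps14, the brightest member, averaged 8.38. Whether this probe reads Ubtf alone was not tested. Of 14 regulators, 2 were higher and 6 lower, beside the same shares of all genes. Myc, a transcription factor that drives ribosomal protein genes, was higher in KO tumours against KO livers (2.46 ± 0.44, adjusted p = 2.0e-04) and in DEN tumours against WT livers (1.61 ± 0.44, adjusted p = 0.016). For Myc, DEN tumour mice (-2.89 to -1.15) and WT livers (-4.48 to -1.94) overlapped. Mycn was at least 4.03-fold higher in KO tumours against KO livers, since it was not well above background on any KO liver array (measured means -2.69 and -6.43, adjusted p = 1.1e-04), the bound being set per array by the dimmest probe above background. Its mean was -2.75 in DEN tumours and -3.96 in WT livers, so KO livers were the lowest group. Mycn was well above background on 5 of 6 KO tumour arrays and 3 of 4 WT liver arrays. Larp1 was lower in KO tumours against KO livers (-0.85 ± 0.16, adjusted p = 3.2e-04), a call that quantile normalization did not make (-0.01). Of 6 ribosomal proteins outside the name rule, 3 were lower and 0 higher in KO tumours against KO livers (29.6% and 21.6% of all genes). With quantile normalization 2 were higher and 0 lower (24.9% and 24.8% of all genes). Rpl36al, a paralog of Rpl36a, was among the 3 (-0.94 ± 0.25, adjusted p = 0.0049, and -0.02 with quantile normalization).

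Marker genes of cell types and of proliferation differed between KO tumours and KO livers. Such levels cannot tell the number of cells from the RNA per cell. All 8 hepatocyte markers measured were lower in KO tumours against KO livers, with a summed level of 8.28 to 9.54 in KO tumour mice, 10.4 to 11.0 in DEN tumour mice, while KO livers had 11.4 to 11.7 and WT livers 11.1 to 11.4. All 6 bile duct markers were higher in KO tumours, at 5.56 to 7.93, against 2.87 to 5.12 in DEN tumour mice, 0.85 to 1.57 for KO livers and 0.87 to 1.68 for WT livers. All 7 proliferation markers were higher as well (4.38 to 5.32 in KO tumour mice, 2.10 to 3.31 in DEN tumour mice, 1.52 to 1.87 for KO livers and 1.40 to 2.83 for WT livers), and so were 5 of 6 stellate and matrix markers (6.40 to 8.64 in KO tumour mice, 3.79 to 6.81 in DEN tumour mice, 5.42 to 5.66 for KO livers and 5.11 to 5.72 for WT livers). Their part in the changes of the members was not tested.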

How the data were processed

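Per the file headers, arrays were read with Agilent Feature Extraction 10.7.3.1. The deposited intensity of a spot is the scanner software's processed signal, from which background was already taken off, in arbitrary units, with flags for spots above background, saturated or outlying. The authors' deposited table is in log2 units and matches the arrays' own values after scaling on the 75th percentile and centring of each probe.

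Outlier spots were dropped (969 missing values), spots of a probe averaged as log2 intensity, and each array's 75th percentile over 39429 probes subtracted. A probe had to be well above background on 4 or more of the 21 arrays (30397 were), and the brightest probe stood for a gene. No member spot was saturated. Names come from the array files; RefSeq names of GRCm38.p6 matched 31232 probes. Coordinates of probes are mm9, as in the array files.

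Groups follow the labels. Tumour titles carry a number and a T, and tumours with the same number were taken to share a mouse. One limma fit with 4 group means (R 4.3.3, limma 3.58.1) covered 23537 genes and 18 mice, with Benjamini-Hochberg adjustment and a threshold of 0.05; it was tested on simulated data. Nothing says that livers came from separate litters or cultures, so p-values measure the spread between these mice. The number of arrays limits the precision.

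Alternatives were normexp (offset 50) with quantile normalization, other scalings, the authors' values, no filter, single arrays, slide and scan day blocks (slide correlation 0.358), other probe choices and leaving out each mouse or the brightest slide. Scaling on the members' median, probes on the own chromosome and 1 combination were added after seeing the data. Named genes were the 4 highest and 4 lowest called members of each comparison, members tied to p53, the stalk, paralogs, members dim in a group, and up to 2 risen and 2 fallen genes of each pathway list. Some genes that this rule picks are not reported here. The members and lists were chosen with earlier results of these data known. Tables were made with pandas 2.3.3 and numpy 2.4.6, figures with matplotlib 3.10.9.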

Additional observations from a re-analysis of the deposited data

Results flagged for a closer look

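In 3 places 1 mouse stood apart from the rest of its group by Dixon's criterion. Rpl11 was at 6.14 in KO tumour mouse 5, against 6.85 to 7.13 in the other KO tumour mice. Rpsa was at 6.67 in the same mouse, against 7.37 to 7.57 in the others. That mouse also had the lowest median member level of the KO tumour mice, 5.78 against 5.91 to 6.28. Its arrays had the highest 75th percentiles of all arrays (3894 and 4258 intensity units). A shift of the whole array thus cannot be told apart from a shift of these genes. Rpl12 was at 5.48 in KO liver mouse 1, against 5.56 to 5.57 in the other KO livers, a small gap in a tight group. Chance marks about 1 in 20 groups, and 124 groups of mice were examined.

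Of the 8 members whose tumour effect differed between the knockout and the DEN model by the test of the difference itself, with limma and Benjamini-Hochberg adjustment, the 4 with the lowest values are given. The difference was -1.16 for Rps27l (adjusted p = 0.0097), -1.06 for Rps29 (adjusted p = 0.0015), -1.03 for Rpl7a (adjusted p = 0.0042) and -0.96 for Rpl36 (adjusted p = 0.0097). With quantile normalization it was -0.31, -0.10, -0.05 and 0.10 for these genes, none of them called, and with slide as a random block 0 members were called.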

How the results depend on the processing

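Normalization set the direction of the members as a whole in KO tumours, while the median in DEN tumours against WT livers was positive with either (0.08 and 0.19). With normexp and quantile normalization, KO tumours against KO livers had 71 members higher and 1 lower (median 0.78), DEN tumours against WT livers 17 higher and 2 lower, KO tumours against DEN tumours 58 higher and 1 lower (median 0.44), KO livers against WT livers 7 lower, and the difference of the tumour effects 46 higher and 0 lower (median 0.58). With the brightest slide of KO tumours left out as well, these were 70 and 1 (median 0.84), 25 and 2, 58 and 2 (median 0.51), 1 higher and 11 lower, and 56 and 0 (median 0.66). Scaling on the members' median gave 9 higher and 11 lower for KO tumours against KO livers, 3 and 9 for KO tumours against DEN tumours, 2 lower for KO livers against WT livers, and 2 higher and 4 lower for the difference. With slide as a random block, KO tumours against KO livers had 0 higher and 7 lower, DEN tumours against WT livers 0 and 0, KO tumours against DEN tumours 0 and 11, and the difference 0 lower. Scan day as a fixed block gave 5 higher for KO tumours against KO livers and 38 lower for KO tumours against DEN tumours (median -0.53). Scan day 1 alone gave 5 higher and 22 lower for KO tumours against KO livers (median -0.21). For KO tumours against DEN tumours it gave 0 higher and 42 lower (30.2% of all genes were lower), at a median of -0.53. With each array as a sample, 1 member was higher in KO tumours against KO livers, 4 in DEN tumours against WT livers, 34 lower in KO tumours against DEN tumours and 15 lower in the difference. Without the brightest slide, 5 were higher in KO tumours against KO livers, 6 in DEN tumours against WT livers, 2 in KO tumours against DEN tumours, 1 in KO livers against WT livers, and 2 higher and 13 lower in the difference. Without the filter on dim probes DEN tumours against WT livers had 1 member higher, and with probes whose accession carries the gene's symbol 4. The cause was not tested. Where a single direction is printed, the count of the other direction is not reported here. Shares of all genes called are not given for the other settings with blocks, single arrays, other probes or arrays left out. Those counts are therefore not read against all genes.

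Leaving out each mouse in turn gave, in KO tumours against KO livers, 0 to 3 members higher and 15 to 24 lower (medians -0.30 to -0.14), with 0 higher without KO tumour mouse 1 or 2 or KO liver mouse 1 or 4. DEN tumours against WT livers had 1 to 5 higher and 1 lower (0.03 to 0.16), KO tumours against DEN tumours 1 higher and 16 to 29 lower (-0.40 to -0.23), KO livers against WT livers 0 in either direction (0.01 to 0.18), and the difference 0 to 1 higher and 5 to 14 lower (-0.50 to -0.31), with 14 lower without KO tumour mouse 4 and 5 lower without DEN tumour mouse 5, KO liver mouse 3 or WT liver mouse 3 or 4. Shares of all genes called are not given for these fits, so the counts are not read against all genes.

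Log2 changes of named genes that changed sign with quantile normalization, and were called with it or with the 75th percentile, were, in KO tumours against KO livers, Rpl10 0.19, Rpl11 0.38, Rpl13a 0.91, Rpl14 0.22, Rpl23 0.67, Rpl26 0.76, Rpl3 0.91, Rpl5 0.87, Rplp0 1.07, Rplp2 1.01, Rps27 0.15, Rps27a 0.86, Rps4x 0.66, Rps6 0.85, Rps7 0.54 and Rpsa 0.36. In KO tumours against DEN tumours they were Rpl10 0.53, Rpl11 0.13, Rpl13a 0.42, Rpl23 0.52, Rpl39 0.19, Rpl7a 0.026, Rplp0 0.42, Rplp1 0.034, Rplp2 0.97, Rps27 0.44, Rps27a 0.49, Rps6 0.14 and Rpsa 0.41. In the difference of the tumour effects they were Rpl13a 0.37, Rpl23 0.62, Rpl3 0.78, Rpl36 0.10, Rplp0 0.55, Rplp2 0.74, Rps27a 0.63, Rps4x 0.48, Rps6 0.60 and Rpsa 0.44. With the brightest slide also left out they were, in KO tumours against KO livers, Larp1 0.19, Rpl10 0.20, Rpl11 0.58, Rpl13a 0.85, Rpl14 0.22, Rpl23 0.65, Rpl26 0.75, Rpl3 1.10, Rplp0 1.24, Rplp2 0.99, Rps27 0.20, Rps27a 0.77, Rps4x 0.67, Rps6 0.86, Rps7 0.30 and Rpsa 0.48. In KO tumours against DEN tumours they were then Rpl10 0.54, Rpl11 0.33, Rpl13a 0.35, Rpl23 0.49, Rpl39 0.24, Rpl7a 0.046, Rplp0 0.60, Rplp1 0.15, Rplp2 0.95, Rps27 0.50, Rps27a 0.40, Rps6 0.15 and Rpsa 0.53, and in the difference Rpl11 0.51, Rpl23 0.59, Rpl3 0.97, Rpl36 0.18, Rplp0 0.72, Rplp2 0.72, Rps27a 0.55, Rps4x 0.50, Rps6 0.61 and Rpsa 0.56. Probes on the own chromosome or with the gene's accession gave 0.57 for Rpl3 in KO tumours against KO livers, and probes with the gene's accession -0.47 for Rps4x in KO tumours against DEN tumours. Rps27l kept its direction and call in all 32 settings in KO tumours against KO livers (largest adjusted p = 0.00032) and in KO tumours against DEN tumours (largest adjusted p = 0.0018). No paired analysis was possible because nothing in the titles ties a tumour to a liver. Signal close to background limits Rpl39l, Rpl3l and Rpl10l.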
